A study of Homo sapiens with 12 samples.

Results

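The genes described here were the replication-dependent histone genes as counted in poly(A)-selected RNA of head and neck squamous carcinoma cells. Members were the protein-coding genes whose symbols follow the cluster names of linker histone H1 (H1-1 to H1-6) and of the core histones H2A (H2AC), H2B (H2BC), H3 (H3C) and H4 (H4C). There were 65 such genes among 58051 gene identifiers counted, namely 6 of H1, 15 of H2A, 18 of H2B, 11 of H3 and 15 of H4. They were chosen by their measured counts, which were raised in Cal27 AfaR cells, so the comparison of Cal27 AfaR with Cal27 parental cells is given for them as a description with no test. Matching symbols that were not paired with an identifier in the count files (H2AC18, H2AC19, H3C2 and H3C3) were not analysed here.

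FaDu is a line of hypopharyngeal squamous cell carcinoma, kept in EMEM, and Cal27 a line of squamous cell carcinoma of the tongue, kept in DMEM. Parental cells of each line were compared with afatinib-resistant (AfaR) and erlotinib-resistant (ErlR) derivatives, with 2 libraries labelled as biological replicates in each of 6 groups and all 12 libraries labelled as wild type and as 1 batch. Afatinib is an irreversible inhibitor of the ERBB family and erlotinib a reversible inhibitor of EGFR. By the study's methods the resistant cells had been selected in stepwise rising doses and were held under drug, then typically grown without drug for a day before an experiment, while parental cells had no such selection. Each resistant model is 1 derived population, so selection in that population and the drug used cannot be told apart. The p-values below set a difference against the spread between the 2 libraries of a group, pooled over all groups in a fit. In the main fit of a line this took in all 6 of its libraries, also those of the group not compared.

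Replication-dependent histones package newly made DNA, and their genes are transcribed mainly in S phase from clusters in which several genes lie within a short distance. Their mRNAs are the main class of animal mRNA that ends without a poly(A) tail: the transcript is cut just behind a short stem-loop that is bound by SLBP, with the help of the U7 snRNP, and the message is degraded when replication stops. Polyadenylated forms of the same genes, made when the transcript runs on to a downstream poly(A) signal, are known from differentiated and some transformed cells. A poly(A)-selected library counts the latter and whatever tailless message is carried along, and the counts used here cannot tell them apart.

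The stem-loop was present in the reference genome behind every member and is shown first because it is what sets these messages apart. The letters GG, any 2 bases, CTT, any base, T, any base, AG, any 2 bases and CC, searched on the sense strand within 150 bases past the stop codon, were found in 65 of 65 members and in 4 of 19463 other protein-coding genes (0.0206%), which were H2AX, H3-4, H3-7 and TIPARP. The first base of the match lay from 23 to 63 bases past the stop codon. The same core of 16 bases stood behind 36 members, a second core behind 10 genes that were all of H4, and another behind 9, while the other 10 members shared 7 further forms. The following are 30 bases around the match in the members that carry most of the results, 5′ to 3′ on the strand of the gene, with the 16-base match in capitals (GRCh38).
H1-2, chr6:26055737-26055766, minus strand: cccaaaaGGCTCTTTTCAGAGCCaccactg
H2AC6, chr6:26124662-26124691, plus strand: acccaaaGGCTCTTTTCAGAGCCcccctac
H2BC21, chr1:149886181-149886210, minus strand: ctccaaaGGCTCTTTTCAGAGCCacccacc
H2BC12, chr6:27146359-27146388, minus strand: ccccaaaGGCTCTTTTAAGAGCCacttaaa
H3C8, chr6:26270916-26270945, minus strand: ttaaaaaGGCTCTTTTAAGAGCCgcctact
H4C8, chr6:26285124-26285153, minus strand: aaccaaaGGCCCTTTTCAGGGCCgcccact
H4C9, chr6:27139647-27139676, plus strand: ctaaaaaGGCCCTTTTTAGGGCCcctaagc

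The gene models on which the reads were counted fell into 2 kinds. In 25 members the model ran more than 150 bases past the stop codon, beyond the stem-loop, and these are called extended models below. In the other 40 it was short, and in 32 of those it ended with the coding sequence. AATAAA or ATTAAA, the common poly(A) signals, stood in the last 40 bases of 16 of the 25 extended models (64.0%) and of 1 of the 40 short ones, against 69.99% of the other protein-coding genes. The following show that signal in capitals within the end of extended models of members with high or changing counts.
H2AC6, chr6:26139077-26139105, plus strand: tggcatgaggtAATAAAaggtaatgcaaa
H2BC21, chr1:149884465-149884494, minus strand: gctattgttattAATAAAgttaccaattaa
H2BC5, chr6:26171313-26171342, plus strand: aaagttataattAATAAAatctgcggagaa
H2BC9, chr6:26253677-26253706, plus strand: aaataattttttAATAAAaggtttttttaa
H4C8, chr6:26277609-26277637, minus strand: gaattgtgaaaaAATAAAtgtttaagcca

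Gene counts summed to at least 16334937 and at most 23399259 in a library. Levels are CPM, read counts scaled to the size of the library, after TMM scaling, and levels of different genes are compared as CPM per kilobase of the counted model. Levels per kilobase depend on how far a model runs past the stop codon, so short and extended models are not fully comparable. A member was tested where edgeR's filter on low counts kept it in its line, which held for 29 of the 65 in Cal27 and 33 in FaDu, and 6 members (H2AC1, H2AC15, H2BC1, H3C4, H4C6 and H4C7) had no read in any library. The filter took in all 6 libraries of a line, so a scarce member could pass in Cal27 through its AfaR libraries alone. A gene was called changed where its Benjamini-Hochberg adjusted p was under 0.05 and its log2 fold change lay above 1 or below -1. Squamous markers were present in both parental lines, but in Cal27 AfaR the 10 of them summed to between 922 and 1038 CPM against 3982 to 5104 CPM in Cal27 parental cells, with 8 of 10 called lower, among them KRT14 (log2 fold change -7.24) and TP63 (-3.41). The 10 fibroblast markers summed to between 324 and 338 CPM in Cal27 AfaR against 74.7 to 84.0 CPM in the parental cells. COL1A1 (3.15), PDGFRB (2.91) and LUM (8.09) were called higher and PDPN (-2.05) lower there, while DCN and FAP were at or below 0.16 CPM in all 12 libraries. The 5 leukocyte markers summed to at most 6.74 CPM in any library. The 5 endothelial markers summed to at most 37.5 CPM, most of it CDH5 in Cal27 parental and Cal27 AfaR cells, where it lay between 28.5 and 35.8 CPM. The part of these changes in the histone values was not tested.

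Summed over all 65 members, the histone reads made up 592 and 456 CPM in the 2 Cal27 AfaR libraries against 94.2 and 131 CPM in Cal27 parental cells. The mean was 4.65 times the parental mean (524 ± 96.3 against 113 ± 26.4 CPM, SD, n = 2). Each class took part in this. The summed H1 level was 4.74 times the parental one, H2A 5.66 times, H2B 4.52 times, H3 4.49 times and H4 3.51 times. The 10 libraries of the other 5 groups were far below the AfaR pair. Cal27 ErlR had 107 and 153 CPM, FaDu parental 139 and 147, FaDu AfaR 123 and 138, and FaDu ErlR 150 and 176. H2A and H2B genes together held from 69.6% to 82.2% of the members' reads in every library.

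**Figure D1:**
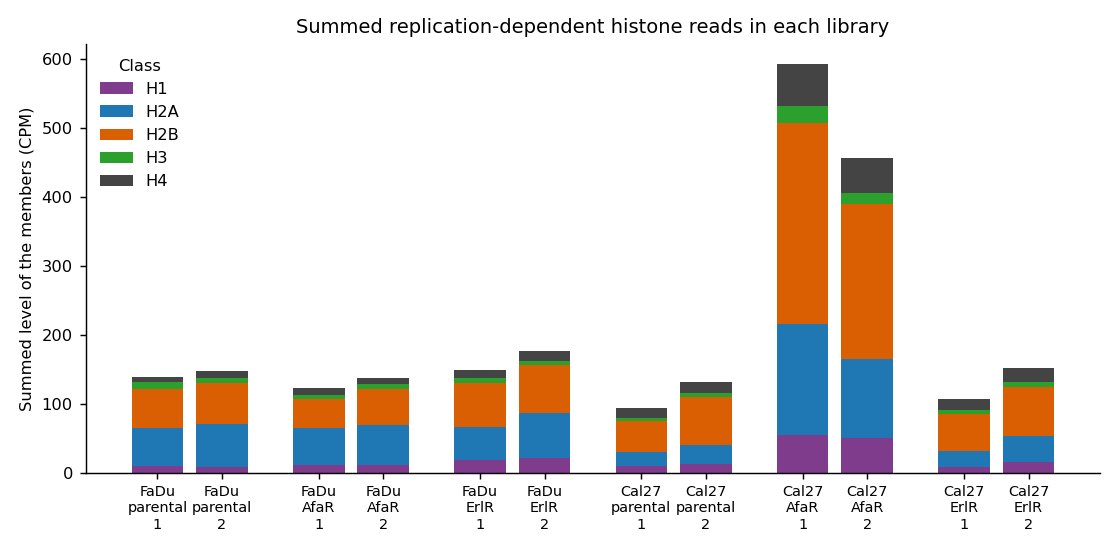
Bars show the summed level (CPM after TMM scaling) of the 65 replication-dependent histone genes in each of the 12 libraries, stacked by class. The 2 Cal27 AfaR libraries reach 592 and 456 CPM, and the other 10 libraries lie between 94.2 and 176 CPM.

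In Cal27 AfaR against parental cells, the fitted log2 fold change was positive for 27 of the 29 members that passed the filter, over 1 for 24 and over 2 for 17, with a median of 2.13 beside -9.5e-06 over all 15269 genes. Of all genes in this comparison, 14.0% lay over 1 and 6.0% over 2. Both AfaR libraries lay above both parental libraries for 26 of the 29, against 36.1% of all genes. These shares describe the contrast by which the genes were chosen. The filter also counted the AfaR libraries, so members well counted only there can be among the 29. The same limit holds for the counts by class, gene model and position below. With all 58 members that had any read in Cal27 and no filter, the median was 1.66. The members below a log2 fold change of 1, listed here after their values were seen, were H3C12 (-0.56), H4C3 (-0.04), H4C5 (0.28), H2AC20 (0.86) and H2AC25 (0.93).

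Among H2A genes, H2AC6 (ENSG00000180573, chromosome 6, 26124145 to 26139116, spliced extended model) had 8.0 and 15.3 CPM in Cal27 parental cells and 121 and 79.0 CPM in Cal27 AfaR. The lowest AfaR library was thus above the highest parental one, although the libraries of each group differed among themselves, and the log2 fold change was 3.11 (SE 0.36). H2AC11 (ENSG00000196787, chromosome 6, 27133042 to 27135291) went in the same libraries from 4.07 and 4.72 to 18.3 and 16.7 CPM. H2AC13 (ENSG00000196747, chromosome 6, 27808199 to 27808701, short model) had 0.70 and 0.35 CPM in parental and 3.45 and 4.00 CPM in AfaR cells. The exception among the abundant H2A genes was H2AC25 (ENSG00000181218, chromosome 1, 228456979 to 228457873), at 6.29 and 6.99 CPM in parental and 13.3 and 12.0 CPM in AfaR libraries, a log2 fold change of 0.93 (SE 0.24).

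Each of the 11 H2B genes tested in Cal27 lay above a log2 fold change of 1 in AfaR cells. H2BC21 (ENSG00000184678, chromosome 1, 149884459 to 149886652, extended model) went from 5.24 and 11.7 CPM to 92.2 and 53.5 CPM, a log2 fold change of 3.11 (SE 0.38). H2BC5 (ENSG00000158373, chromosome 6, 26158146 to 26171349) had 4.07 and 8.63 CPM in parental and 53.0 and 37.9 CPM in AfaR libraries. H2BC12 (ENSG00000197903, chromosome 6, 27146418 to 27146798), whose model holds only the coding sequence, had 27.9 and 36.4 CPM in parental and 101 and 94.9 CPM in AfaR libraries (log2 fold change 1.61, SE 0.17). Per kilobase it stood at 84.5 CPM in Cal27 parental and 257 CPM in Cal27 AfaR cells, above every other member in both groups. H1-2 was next at 16.5 and 80.4 CPM per kilobase. Both models hold only the coding sequence, while extended models were also divided by their bases past the stem-loop. This order thus depends on the annotation. The largest fitted change was that of a scarce gene, H2BC18 (ENSG00000203814, chromosome 1, 149782689 to 149812373), with 2 and 5 reads in the parental and 63 and 40 in the AfaR libraries. Its ratio was 14.1, with an exact 95% interval from 6.61 to 36.0 that covers counting error only, and its model overlaps that of FCGR1A. At the low end of the H2B genes, H2BC9 had 0.87 and 1.17 CPM in parental and 2.48 and 2.15 CPM in AfaR libraries.

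Counts of H3 genes were low throughout Cal27 parental cells. H3C10 (ENSG00000278828, chromosome 6, 27810064 to 27811300) had 0.76 and 1.11 CPM in parental and 9.93 and 6.38 CPM in AfaR libraries (log2 fold change 3.12, SE 0.41). H3C6 had 1.11 and 2.21 CPM in parental and 9.76 and 4.81 CPM in AfaR cells, and H3C8 had 0.35 and 1.11 against 3.29 and 4.12 CPM. H3C12, whose model overlaps that of H2AC17, was the single tested member with both AfaR libraries below both parental ones, at 0.54 and 0.64 against 0.76 and 0.99 CPM.

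The H4 genes ran from -0.04 to 3.41 on the log2 scale, and the H3 genes from -0.56 to 3.12. H4C8 (ENSG00000158406, chromosome 6, 26277609 to 26285638) had 0.76 and 1.11 CPM in Cal27 parental and 11.9 and 8.00 CPM in Cal27 AfaR libraries (log2 fold change 3.41, SE 0.37). H4C9 (ENSG00000276180, chromosome 6, 27138588 to 27139881), the H4 gene with the highest level per kilobase in both groups, had 12.4 and 11.0 CPM in parental and 41.0 and 34.9 CPM in AfaR cells. For H4C3 the 2 AfaR libraries disagreed, at 0.22 and 1.57 CPM, around parental values of 0.81 and 0.99 CPM. Of the H1 genes only H1-2 (ENSG00000187837, chromosome 6, 26055787 to 26056428) passed the filter in either line. It went from 9.72 and 11.4 to 54.0 and 49.3 CPM, a log2 fold change of 2.29 (SE 0.24), whereas H1-3 and H1-4, the next linker histone genes by mean level, stayed at or below 0.41 CPM in those 4 libraries.

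**Figure D2:**
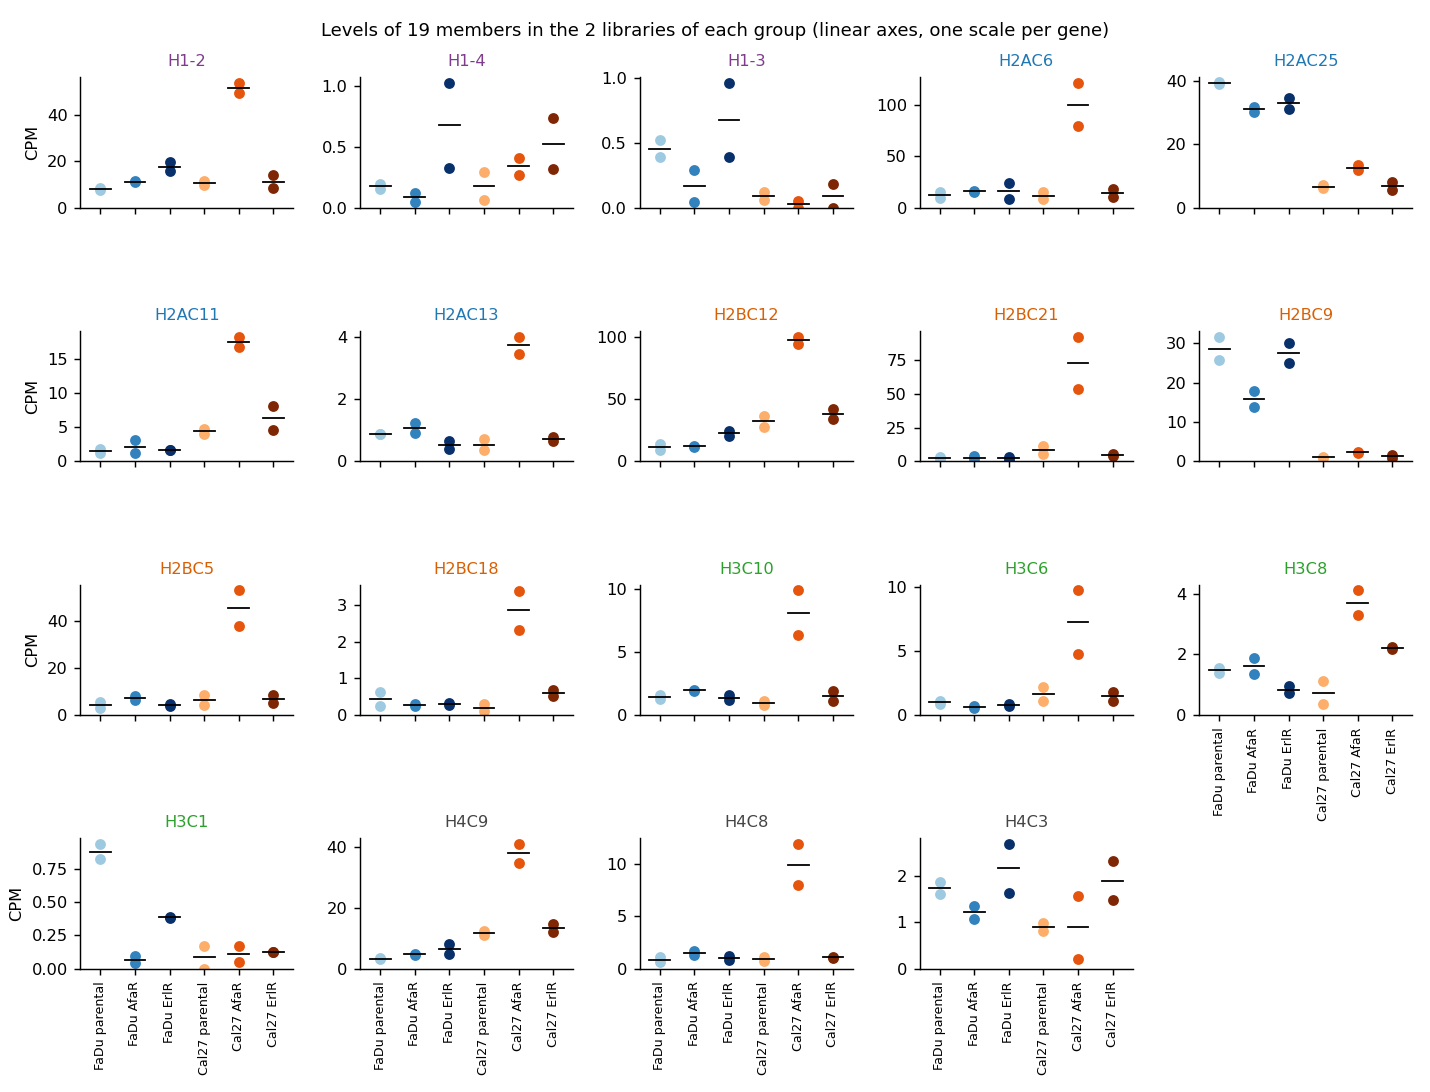
Points show the CPM of 19 members in the 2 libraries of each group, and lines the group means, on linear axes with a scale of their own for each gene; title colours give the class. In Cal27 AfaR, H2AC6 reaches 121 and 79.0 CPM and H2BC21 92.2 and 53.5 CPM, while H2AC25 and H2BC9 are highest in FaDu.

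Summed over all 25 extended models the level in Cal27 AfaR was 5.58 times the parental one, and over all 40 short models 3.39 times. In Cal27, 21 of the 25 extended and 8 of the 40 short models were tested. Their median log2 fold changes in Cal27 AfaR were 2.27 and 1.81, with 19 of 21 and 5 of 8 over 1. Extended models held 71.7% and 65.4% of the members' reads in the Cal27 AfaR libraries and 55.1% and 59.1% in Cal27 parental cells. H1-2 and H2BC12 alone, both counted on the coding sequence only, held 26.1% and 31.6% in AfaR and 39.99% and 36.4% in parental cells. The remaining 38 short models summed to 4.60 and 5.95 CPM in parental and to 13.0 and 13.7 CPM in AfaR cells, 2.54 times as much.

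H2A and H2B genes often lie head to head with a common promoter region between them, and 11 such pairs were found with at most 600 bases between the starts of their models. For 8 pairs both partners had both Cal27 AfaR libraries above both parental ones, for 1 pair a single partner did, and for 2 pairs neither. Taken singly, 36.1% of all genes tested were separated in this way, and the pair counts describe the contrast by which the members were chosen. Some of the partners so counted were scarce, such as H2BC13 (means of 0.15 CPM in parental and 0.42 CPM in AfaR cells) and H2BC17 (0.29 and 0.55 CPM). The 2 pairs with neither partner were scarce as well. H2AC1 and H2BC1 had no read in any library. H2AC14 and H2BC14 averaged 0.058 and 0 CPM in parental and 0.16 and 0.027 CPM in AfaR cells. Levels per kilobase could differ between partners. H2BC21 averaged 3.85 CPM per kilobase in parental and 33.2 in AfaR cells, while H2AC20, which starts 322 bases from it on the other strand, averaged 0.75 and 1.38 CPM per kilobase. H2BC12 averaged 84.5 and 257 CPM per kilobase beside H2AC12 with 0.075 and 0.29. In the pair of H2BC4 and H2AC6, which like the other pairs named here was chosen after its values were seen, both partners were counted well, at 3.32 and 6.97 CPM per kilobase in parental and 16.1 and 60.0 in AfaR cells. The pair of H2BC11 and H2AC11 had 2.39 and 1.95 CPM per kilobase in parental and 10.4 and 7.78 in AfaR cells.

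The promoter sequences, given because the members of different classes moved together, carried the elements known for these genes. RefSeq promoters of 300 bases (GRCh38.p14, 250 before to 50 after the start) matched 60 members, and 35052 other promoters served as background. On either strand, TATAAA was present in 65.0% of members and 11.4% of the others, CCAAT in 83.3% and 34.5%, and the octamer ATTTGCAT in 43.3% and 1.70%. CCAAT was in all 47 matched H1, H2A, H2B and H3 promoters and in 3 of 13 of H4, and the octamer was in 11 of 14 of H2A and 14 of 18 of H2B and in none of H1 or H4. The single match among 9 H3 entries was that of H3C4, whose entry is the same window as that of H2AC7, so it is not a separate promoter. Windows of head-to-head H2A and H2B partners also overlap, as for H2AC6 and H2BC4. A single match can therefore be counted for both partners, and the H2A and H2B counts are not independent. The members above a log2 fold change of 1 in Cal27 AfaR thus included promoters with and without the octamer. A match is a description of the letters only. The promoters of H1-2 (CCAAT only), H2AC6 and H2BC12 (all of these elements) are shown with each match on either strand in capitals.
H1-2, chr6:26056421-26056720, minus strand: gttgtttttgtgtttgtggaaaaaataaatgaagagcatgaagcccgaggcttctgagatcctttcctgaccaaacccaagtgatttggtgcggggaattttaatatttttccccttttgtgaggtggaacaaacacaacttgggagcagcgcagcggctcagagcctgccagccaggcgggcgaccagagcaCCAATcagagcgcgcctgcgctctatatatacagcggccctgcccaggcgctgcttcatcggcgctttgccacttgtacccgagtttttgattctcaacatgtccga
H2AC6, chr6:26123922-26124221, plus strand: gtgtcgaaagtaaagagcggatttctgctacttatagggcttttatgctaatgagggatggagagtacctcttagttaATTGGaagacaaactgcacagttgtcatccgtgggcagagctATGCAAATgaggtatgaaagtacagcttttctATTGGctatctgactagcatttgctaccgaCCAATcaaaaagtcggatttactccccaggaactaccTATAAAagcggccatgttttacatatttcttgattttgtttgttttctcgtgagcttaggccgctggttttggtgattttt
H2BC12, chr6:27146809-27147108, minus strand: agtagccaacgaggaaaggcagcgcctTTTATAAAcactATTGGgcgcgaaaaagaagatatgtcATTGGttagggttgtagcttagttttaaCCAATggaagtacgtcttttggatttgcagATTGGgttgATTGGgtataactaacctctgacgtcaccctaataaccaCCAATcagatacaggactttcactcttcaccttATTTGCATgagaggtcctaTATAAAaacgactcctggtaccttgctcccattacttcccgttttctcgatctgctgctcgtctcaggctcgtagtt

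The raised levels in Cal27 AfaR were not confined to a single cluster. Of the 65 members, 53 lay on chromosome 6 between 25726132 and 27893843, in 3 stretches more than 500 kb apart, 9 on chromosome 1 between 149782689 and 149887916, 2 on chromosome 1 between 228456979 and 228460470, and 1 on chromosome 12. Members over a log2 fold change of 1 numbered 11 of 13 tested in the first stretch on chromosome 6, 4 of 4 in the second, 4 of 5 in the third, 3 of 4 in the larger cluster on chromosome 1, 1 of 2 in the smaller, and the gene on chromosome 12. The protein-coding neighbours between the members on chromosome 6 were tested, since they did not enter the choice. Of 14 tested, 1 was called higher and 1 lower in Cal27 AfaR by edgeR's quasi-likelihood test, beside 11.5% higher and 8.06% lower of all genes, and their median log2 fold change was 0.45. With no fold limit 6 of the 14 passed higher and 1 lower, beside 19.5% and 18.2% of all genes. The one called higher was ENSG00000282988 (0.47 ± 0.083 to 5.31 ± 1.26 CPM, log2 fold change 3.49, adjusted p = 0.00025). Its model overlaps the exons of H3C4 and H2AC7, so reads of these histone genes and of this model cannot be told apart in these counts. The low counts of H3C4 and H2AC7 are under the same limit. PRSS16, which encodes a serine protease of the thymus, was called lower (10.9 ± 0.63 to 4.36 ± 0.064 CPM, log2 fold change -1.31, adjusted p = 0.0039). Without parental replicate 2 or AfaR replicate 2 the 2 calls became 5.

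**Figure D3:**
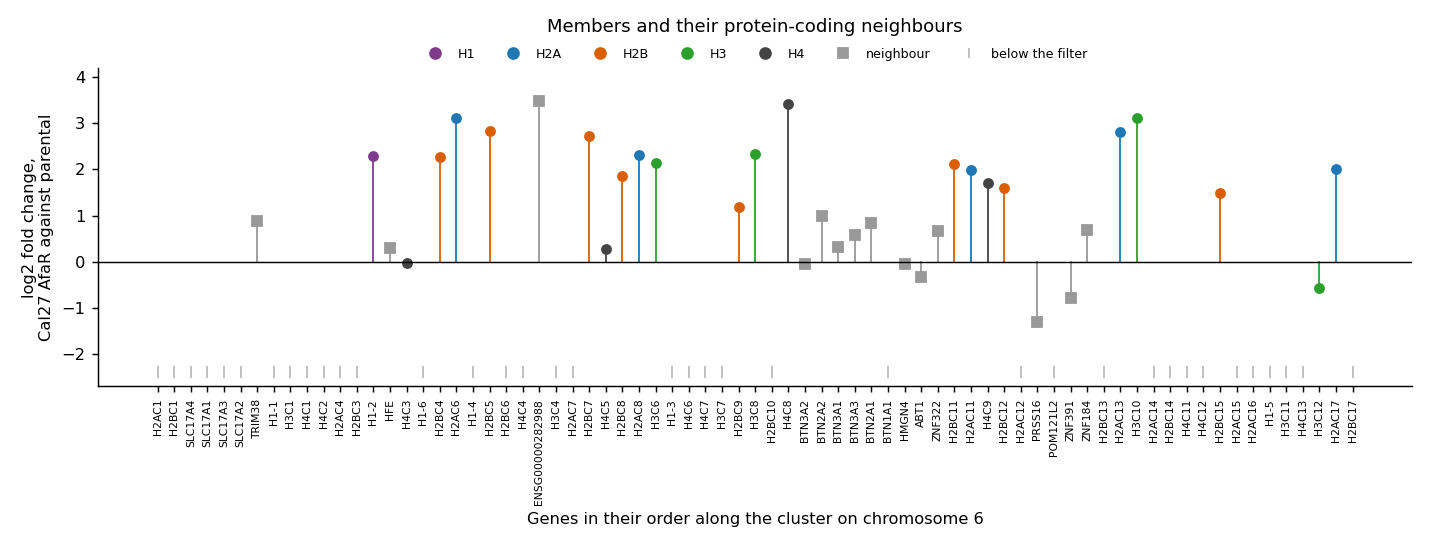
The fitted log2 fold change of Cal27 AfaR against parental cells is plotted for genes in their order along the cluster on chromosome 6, with members as circles coloured by class and protein-coding neighbours as grey squares; ticks at the bottom mark genes below the filter. Above 1 lie 11 of 13, 4 of 4 and 4 of 5 tested members of its 3 stretches, and the neighbours lie between -1.31 and 0.99 apart from ENSG00000282988 at 3.49.

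Cal27 ErlR cells were compared with the same parental libraries that entered the choice of the members. The filter also took in the Cal27 AfaR libraries, so scarce members could be among the 29 through those libraries alone. The counts, shares and median below are thus not independent of the choice. Of the 29 members tested, 1 was called higher and 0 lower by edgeR, beside 3.56% higher and 9.92% lower of all genes, and the median log2 fold change was 0.28 beside -0.03 over all genes. An unadjusted p under 0.05 was reached by 1 member (40.2% of all genes), and 5 of the 29 had both ErlR libraries above both parental ones, against 34.0% of all genes. The member called was H3C8 (ENSG00000273983, chromosome 6, 26269405 to 26271815), an H3 gene with an extended model. It had 0.35 and 1.11 CPM in parental and 2.17 and 2.26 CPM in ErlR cells, so the groups did not overlap but the parental libraries differed among themselves. Its log2 fold change was 1.57 (SE 0.50, adjusted p = 0.045, edgeR). The call was lost with upper-quartile scaling (adjusted p = 0.057), in a fit of the 4 libraries compared (0.070) and without parental replicate 1 (log2 fold change 0.99, 0.19), ErlR replicate 1 (0.10) or ErlR replicate 2 (0.082).

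In Cal27 ErlR the members abundant in Cal27 AfaR gave mixed values, none of them called. H2AC6 had 10.1 and 18.1 CPM and H2BC5 5.30 and 8.61 CPM, each overlapping the parental libraries. H2BC12 had 33.8 and 42.4 CPM, a log2 fold change of 0.22 (SE 0.17), and H1-2 had 8.30 and 14.1 CPM (0.06, SE 0.24). H2BC18, the member with the largest log2 fold change in Cal27 AfaR, had 0.51 and 0.67 CPM, above both parental libraries, with a log2 fold change of 1.48 (SE 0.66, adjusted p = 0.13, edgeR). H2BC21 was the lowest of the tested members in this comparison, at 3.77 and 5.68 CPM, with a log2 fold change of -0.86 (SE 0.41, adjusted p = 0.15, edgeR). Within the ErlR group, replicate 2 was above replicate 1 for 20 of the 21 members with a mean of at least 1 CPM over all libraries, by a median of 0.58 on the log2 scale. The same held for 19 of the 21 in Cal27 parental cells, by 0.35, whereas in Cal27 AfaR replicate 1 was the higher one for 14 of them.

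In FaDu the resistant models showed no general rise. In FaDu AfaR, 0 of 33 tested members were called higher and 1 lower by edgeR, beside 6.48% higher and 0.954% lower of all genes. An unadjusted p under 0.05 was reached by 2 members above and 5 below (35.2% of all genes), and DESeq2 called none, without an adjusted p for 28 of the 57 members in its fit. Both AfaR libraries lay above both parental ones for 9 of the 33 and below for 11, against 33.8% and 31.2% of all genes. The median log2 fold change was 0.11 beside -0.00071 over all genes. It changed sign with DESeq2 and whenever 1 of the 4 libraries was left out (-0.34 to -0.15). DESeq2 held more members, and the filter was rerun on the libraries left, so those medians can rest on other members than the 33. With no filter the median was -0.35 over 57 members. The member called lower was H3C1 (ENSG00000275714, chromosome 6, 26020490 to 26020900), at 0.82 and 0.93 CPM (17 and 18 reads) in parental and 0.10 and 0.044 CPM (2 reads and 1 read) in AfaR cells. Its ratio was 0.076, with an exact 95% interval from 0.015 to 0.24 for counting error only, and its fitted log2 fold change was -3.61 (SE 0.69, adjusted p = 0.011, edgeR). The adjusted p was 0.090 without parental replicate 1, 0.069 without parental replicate 2 and 0.088 without AfaR replicate 2.

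The abundant members of FaDu were partly other genes than those of Cal27. H2AC25 had 39.0 and 39.6 CPM in FaDu parental cells against 6.29 and 6.99 in Cal27 parental cells, and per kilobase it was above every other member in FaDu parental (43.9 CPM) and FaDu AfaR cells (34.8 CPM). H2BC9 (ENSG00000275713, chromosome 6, 26251651 to 26253710) had 31.7 and 25.7 CPM in FaDu parental and 0.87 and 1.17 CPM in Cal27 parental cells. These differences between the lines were not tested, and the lines were grown in different media. H2BC9 fell in FaDu AfaR to 13.8 and 17.9 CPM, below both parental libraries, with a log2 fold change of -0.87 (SE 0.18) that passed the p limit (adjusted p = 0.014, edgeR) but not the fold limit. H2AC25 had 30.3 and 32.0 CPM there (-0.35, SE 0.12, adjusted p = 0.074, edgeR). H2AC6, with 9.22 and 14.9 CPM in parental and 15.5 and 16.4 CPM in AfaR cells, had a log2 fold change of 0.39 (SE 0.40), and H2BC21, with 1.70 and 2.96 against 1.74 and 3.78 CPM, one of 0.24 (SE 0.53). The 3.11 of both genes in Cal27 AfaR stands beside these values with no test, since that contrast chose them.

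In FaDu ErlR, 1 of 33 tested members was called higher and 0 lower by edgeR, beside 1.54% higher and 0.504% lower of all genes, and the median log2 fold change was 0.05 beside -0.0012 over all genes. The member was H1-2, the abundant linker histone gene, with 8.49 and 7.43 CPM in parental and 15.8 and 19.6 CPM in ErlR cells. The groups did not overlap, and the log2 fold change was 1.14 (SE 0.19, adjusted p = 0.018, edgeR). The adjusted p rose to 0.090 without parental replicate 1, 0.13 without parental replicate 2 and 0.096 without ErlR replicate 2. An unadjusted p under 0.05 was reached by 4 members, all above (21.2% of all genes). Both ErlR libraries lay above both parental ones for 7 of the 33 and below for 6, against 27.8% and 25.9% of all genes. H2BC12 had 9.17 and 14.3 CPM in parental and 20.4 and 24.7 CPM in ErlR cells (log2 fold change 0.93, SE 0.22, adjusted p = 0.051, edgeR), and H4C9 had 3.06 and 3.58 against 4.98 and 8.17 CPM (0.97, SE 0.30, adjusted p = 0.11, edgeR). H2AC6 was spread over 8.31 and 23.5 CPM between the 2 ErlR libraries. When libraries were scaled to the ERCC spike-ins instead, the median of all genes moved from -0.0012 to 0.49 in FaDu ErlR and from -0.00071 to 0.18 in FaDu AfaR, and the members' median stood 0.03 and 0.11 above that. The share of higher genes among all called genes in FaDu ErlR moved with it from 75.4% to 96.1%, and 4 members were then called.

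**Figure D4:**
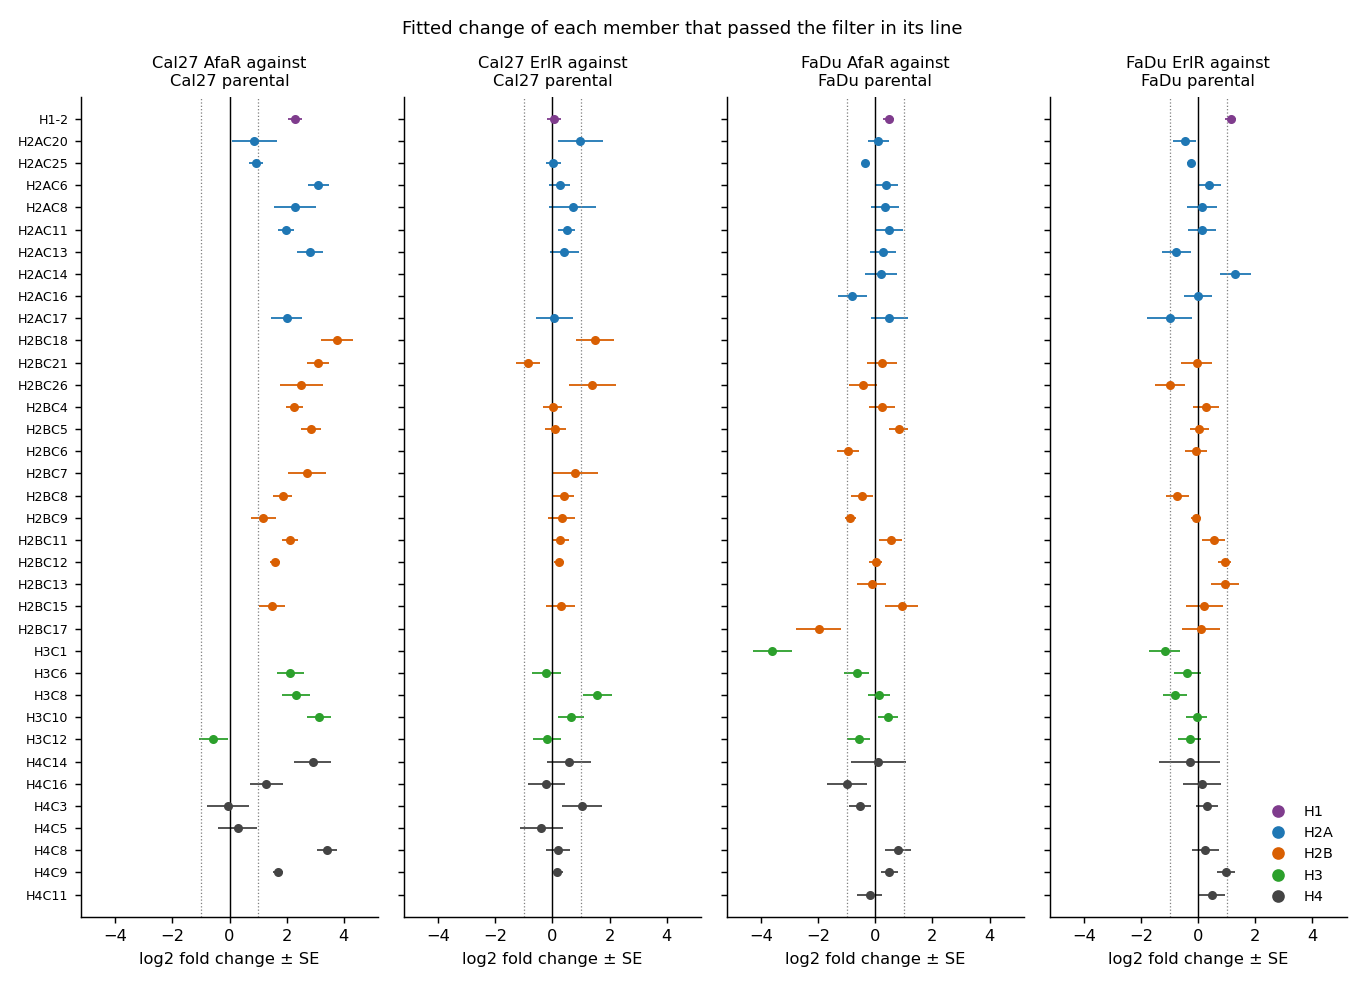
Fitted log2 fold changes with their standard errors are plotted for each member that passed the filter in its line, coloured by class, in the 4 comparisons; dotted lines mark -1 and 1. In Cal27 AfaR 24 of 29 lie above 1, and in the other 3 comparisons the medians are 0.28, 0.11 and 0.05.

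The effect of erlotinib resistance was compared between the lines in 1 edgeR fit over the 12 libraries, in which 38 members were tested. The difference holds the Cal27 parental libraries, which entered the choice of the members, so it is not independent of that choice. The filter of this fit also took in the Cal27 AfaR libraries. The difference (FaDu minus Cal27) passed the limits for 2 members, beside 10.9% of all genes. For H1-2 the difference of the log2 fold changes was 1.07 (SE 0.32, adjusted p = 0.035, edgeR), from 1.14 in FaDu and 0.06 in Cal27. For H3C8 it was -2.41 (SE 0.66, adjusted p = 0.025, edgeR), from -0.82 in FaDu and 1.57 in Cal27, with FaDu values of 1.55 and 1.40 CPM in parental and 0.96 and 0.72 CPM in ErlR cells. Leaving out single libraries gave between 0 and 3 members with such a difference.

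Genes that act on histone mRNA, chromatin and replication were read from lists that did not enter the choice of the members, and each was tested in every comparison. The lists themselves were drawn up with earlier results of these data known. SLBP, which binds the stem-loop, had 76.5 ± 11.4 CPM in Cal27 parental and 63.9 ± 0.77 CPM in Cal27 AfaR cells (log2 fold change -0.26, SE 0.14, adjusted p = 0.17, edgeR). Its log2 fold change was -0.23 in Cal27 ErlR and -0.20 in FaDu ErlR, and in FaDu AfaR it fell by 0.40 (adjusted p = 0.035, edgeR), within the fold limit. NPAT, the coactivator of histone gene transcription in S phase, lay between -0.11 and 0.21 in the 4 comparisons and passed in none. Of the 62 tested genes of histone transcription, 3′ end processing and decay, 3 passed the p limit higher and 10 lower in Cal27 AfaR, beside 19.5% and 18.2% of all genes, with a median of -0.17. The one past the fold limit was SNRPB, an Sm protein of spliceosomal and U7 particles (337 ± 13.4 to 160 ± 30.5 CPM, log2 fold change -1.07, adjusted p = 0.00072, edgeR), a call lost without AfaR replicate 1. In Cal27 ErlR 16 passed higher and 2 lower (12.3% and 15.3% of all genes), and those past the fold limit were cyclin A2, CCNA2 (1.21), and the cleavage factor CSTF2 (1.20). In FaDu AfaR 3 passed higher and 12 lower (10.4% and 7.49% of all genes), and LSM1, a subunit of the ring that starts decay of histone mRNA, was called higher (14.5 ± 1.91 to 40.1 ± 5.89 CPM, 1.45). In FaDu ErlR 1 passed each way (2.58% and 1.6% of all genes) and 0 were past the fold limit, with 14 at an unadjusted p under 0.05 and 0 called by DESeq2.

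Most of the DNA replication and S phase genes that passed in Cal27 AfaR were lower. Of 62 tested, 3 passed the p limit higher and 29 lower, beside 19.5% and 18.2% of all genes, and the median log2 fold change was -0.45. Past the fold limit were 1 gene above and 5 below. The one above was TYMS, thymidylate synthase (94.5 ± 13.7 to 195 ± 40.5 CPM, 1.05), and among those below were GINS1 of the replicative helicase (47.2 ± 8.10 to 20.4 ± 1.79 CPM, -1.21) and POLE2, a subunit of polymerase epsilon (-1.10). The primase PRIM1 (-1.08) and the sliding clamp PCNA (248 ± 17.0 to 124 ± 24.2 CPM, -1.004) were also lower, and were named after their values were seen. The 6 calls became 2 without parental replicate 1 or AfaR replicate 1 and 10 without AfaR replicate 2. The summed level of the 62 genes was 4497 and 5837 CPM in Cal27 AfaR and 7181 and 6170 CPM in parental cells. In FaDu AfaR 0 passed higher and 16 lower (median -0.28), beside 10.4% and 7.49% of all genes. In Cal27 ErlR 10 passed higher and 2 lower (median 0.14, with CCNA2 the single call), beside 12.3% and 15.3%. CCNA2 is the same call as in the processing list, which shares 5 genes with the S phase list. The S phase list also shares 1 gene with the histone chaperones. In FaDu ErlR 0 passed higher and 1 lower (median -0.11), beside 2.58% and 1.6%. Past the fold limit were 0 in both FaDu models by edgeR and DESeq2, with 32 and 16 at an unadjusted p under 0.05.

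Variant and replacement histone genes are expressed outside S phase and mostly carry a poly(A) tail. In Cal27 AfaR the 25 found summed to 1927 and 2144 CPM, against 1839 and 1691 CPM in parental cells. Of 11 tested variants and replacement histones, 3 passed the p limit higher and 1 lower (19.5% and 18.2% of all genes), 0 passed the fold limit by edgeR or DESeq2 (7 at an unadjusted p under 0.05), and the median was 0.30. H2AX, whose message can end at a stem-loop or a tail, had 62.9 ± 8.46 CPM in parental and 109 ± 22.7 CPM in AfaR cells (0.79, adjusted p = 0.0051, edgeR). H2AZ1 (0.40), H3-3A (0.27) and H3-3B (0.22) did not pass. In Cal27 ErlR 3 of the 11 were called higher by edgeR (3.56% of all genes), among them H2AZ1 (269 ± 29.7 to 615 ± 14.7 CPM, 1.17) and the centromeric CENPA (20.9 ± 0.019 to 45.0 ± 0.66 CPM, 1.08), while H2AX (0.92), H3-3B (0.66) and H3-3A (0.09) stayed within the fold limit. In FaDu H2AX, H2AZ1, H3-3A and H3-3B lay between -0.39 and 0.09, and 0 of 11 were called in either model by edgeR or DESeq2, with 5 at an unadjusted p under 0.05 in FaDu AfaR and 1 in FaDu ErlR.

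Of 26 histone chaperones and carriers, 3 passed the p limit higher and 7 lower in Cal27 AfaR (19.5% and 18.2% of all genes), and CHAF1B, a subunit of the assembly factor CAF-1, was called lower (64.5 ± 6.27 to 30.3 ± 6.29 CPM, log2 fold change -1.09, adjusted p = 0.0015, edgeR). That call was lost without parental replicate 1, and without parental replicate 2 or AfaR replicate 2 the count was 3 and 2. Chaperones passing the p limit numbered 4 higher and 1 lower in Cal27 ErlR (12.3% and 15.3% of all genes), 1 and 6 in FaDu AfaR (10.4% and 7.49%), and 0 and 1 in FaDu ErlR (2.58% and 1.6%), with 0 past the fold limit by edgeR or DESeq2 and 10, 11 and 9 at an unadjusted p under 0.05.

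Other RNAs known to lack a poly(A) tail were hardly counted apart from 1 of them. The 35 found in the files summed to 75.4 and 64.7 CPM in Cal27 AfaR against 88.7 and 92.6 CPM in parental cells, 0.77 times the parental mean. RN7SL2, the RNA of the signal recognition particle, made up nearly all of it, at 88.6 ± 1.496 CPM in parental and 68.9 ± 7.75 CPM in AfaR cells (log2 fold change -0.36, SE 0.13, adjusted p = 0.055, edgeR). RN7SL1, RN7SK, RMRP and RPPH1 were at 0 in all 12 libraries, so the sum does not measure tailless RNA in general, and the part of tailless message in the histone counts was not tested. In the other groups the sum was 91.7 and 96.3 CPM (Cal27 ErlR), 154 and 147 (FaDu parental), 130 and 113 (FaDu AfaR) and 226 and 172 (FaDu ErlR). Of these RNAs only 2 passed the filter in Cal27 and 3 in FaDu, and 0 were called by edgeR or DESeq2, with 1, 0, 0 and 2 at an unadjusted p under 0.05 in Cal27 AfaR, Cal27 ErlR, FaDu AfaR and FaDu ErlR. Mitochondrial genes summed to 14586 and 21402 CPM in Cal27 AfaR and 14779 and 22184 CPM in Cal27 parental cells. Neighbours in the chromosome 6 cluster had 4 calls among 14 tested in Cal27 ErlR, all lower (9.92% of all genes), namely the butyrophilins BTN3A3 (-1.96), BTN3A2 (-1.82) and BTN3A1 (-1.56) and the iron regulator HFE (-1.31, named after its value was seen), while the members around them stayed as described. In FaDu AfaR the neighbour ZNF391 was called higher (1.09, adjusted p = 0.044, edgeR), a call lost without parental replicate 1 or 2 or AfaR replicate 2, and in FaDu ErlR 0 of 14 were called by edgeR or DESeq2, with 3 at an unadjusted p under 0.05.

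**Figure D5:**
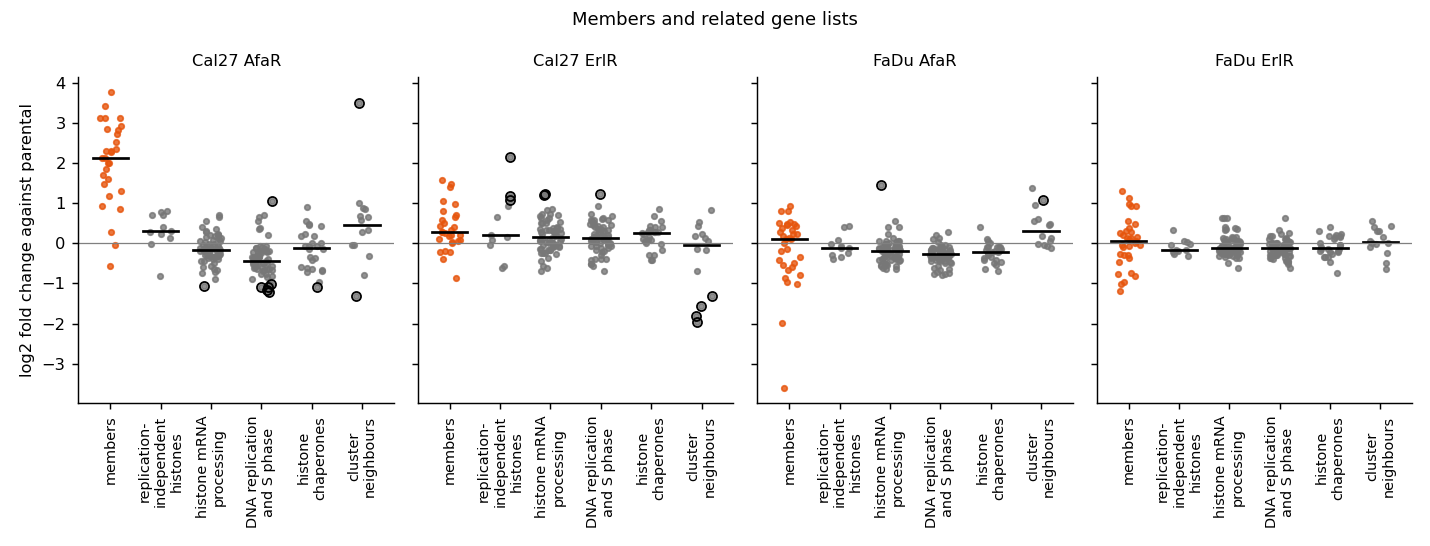
Each point is the fitted log2 fold change of a gene against the parental cells of its line, for the members (orange) and 5 gene lists (grey), with black bars at the medians; open circles mark genes of the lists called at an adjusted p under 0.05 and a log2 fold change above 1 or below -1. In Cal27 AfaR the median of the members is 2.13 and that of the S phase list -0.45.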

How the data were processed

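Poly(A)-selected RNA from frozen pellets, with ERCC spike-ins, was sequenced as paired reads. The authors trimmed reads with Trimmomatic 0.36, aligned them to GRCh38 with STAR 2.5.2b and deposited counts per gene made by featureCounts of Subread 1.5.2. Strand and multi-mapping settings are not given in the sources used here. The deposited normalized tables hold each count divided by 1 size factor per library (signal). They served as an alternative only, and the authors' fold changes and p-values were not used.

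Symbols and models were taken from the GENCODE annotation supplied with the genome, which named 56948 of 58051 identifiers. In R 4.3.3, edgeR 4.0.16 (TMM, filterByExpr, quasi-likelihood test) was fitted once per line over 6 libraries, with 3 residual degrees of freedom. The filter kept 15269 genes in Cal27 and 15092 in FaDu. A further fit of 12 libraries tested the difference of the ErlR effects. Spike-ins were kept out of library sizes and made up 3.86% to 5.82% of reads. The code was tested on simulated data.

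The members and gene lists were chosen with earlier results of these data known. Named were, per class, the 3 members with the highest mean CPM, those with the 8 largest and 3 smallest changes in Cal27 AfaR at a mean of at least 1 CPM, every member called elsewhere, SLBP, NPAT and set replacement histones, and up to 3 called genes per list and direction. Some results that this rule names are not reported here. Within each group the 2 libraries differed by more than counting noise, so none was a repeat deposit. Alternatives were DESeq2 1.42.0, upper-quartile and ERCC scaling, no filter, the 4 libraries compared, a replicate block, no fold limit and leaving out each library. Members H3C14 and H3C15, H4C14 and H4C15, and H4C11 and H4C12 have identical coding sequences, and 14 members overlap another gene model, so their counts are uncertain.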

Additional observations from a re-analysis of the deposited data

Results flagged for a closer look

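The effect of erlotinib resistance differed between the lines for 2 of 38 members in a test of the difference itself (edgeR, 12 libraries), beside 10.9% of all genes. The test holds the Cal27 parental libraries, which entered the choice of the members, and its filter also took in the Cal27 AfaR libraries. For H1-2 the difference, FaDu minus Cal27, was 1.07 on the log2 scale (SE 0.32, adjusted p = 0.035), with both FaDu ErlR libraries above both parental ones and overlapping groups in Cal27. It no longer passed without either FaDu parental replicate, FaDu ErlR replicate 2, Cal27 parental replicate 2 or Cal27 ErlR replicate 1 (adjusted p from 0.0054 to 0.12 over single libraries left out). For H3C8 it was -2.41 (SE 0.66, adjusted p = 0.025), with both ErlR libraries below both parental ones in FaDu and above them in Cal27, at levels of 0.35 to 2.26 CPM. It no longer passed with ERCC scaling (adjusted p = 0.059) and in 5 of the 8 fits that left out a library (adjusted p from 0.010 to 0.079).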

How the results depend on the processing

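Over all settings no result changed sign past its threshold. Short of that, the members' medians took both signs over the settings in Cal27 ErlR (-0.12 to 0.54), FaDu AfaR (-0.36 to 0.29) and FaDu ErlR (-0.13 to 0.52). So did the log2 fold change of H4C3 in Cal27 AfaR (-2.01 to 0.79). In Cal27 AfaR the members' median was 1.57 with DESeq2 and 1.66 with no filter, both over 58 members, and 1.84 to 2.41 with a library left out. The members called in Cal27 ErlR numbered 0 with upper-quartile scaling or 4 libraries, and 0 to 1 with a library left out. In FaDu AfaR they numbered 0 with DESeq2, 2 with no fold limit and 0 to 1 with a library left out, and the median was -0.36 with DESeq2, -0.35 with no filter, 0.29 with ERCC scaling and -0.34 to -0.15 with a library left out. In FaDu ErlR 4 were called with ERCC scaling and 0 to 1 with a library left out, and the median was 0.52 and -0.13 to 0.073 in the same order. Members whose ErlR effect differed between the lines numbered 0 to 3 with a library left out. Each fit with a library left out reran the filter, so its members could differ from those of the main fit. The causes were not tested.

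For the lists, ERCC scaling in FaDu ErlR called 3 processing genes, 1 S phase gene and 1 tailless RNA, and no filter called 1 tailless RNA in Cal27 AfaR. FaDu AfaR neighbours numbered 2 with upper-quartile scaling, no filter or 4 libraries and 3 with ERCC scaling. With a library left out, calls in Cal27 AfaR were 0 to 1 for processing, 2 to 10 for S phase, 0 to 3 for chaperones and 2 to 5 for neighbours. In Cal27 ErlR they were 3 to 5 for variants (5 without ErlR replicate 2), 2 to 4 for processing and 1 to 3 for S phase (4 and 3 without parental replicate 1), and 0 to 1 for chaperones. In FaDu AfaR they were 1 to 2 for processing and 0 to 2 for S phase (2 in each without AfaR replicate 1), and 0 to 1 for neighbours.

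Deviations from group means correlated at -0.17 to 0.10 between same-numbered libraries, which cannot settle whether replicate numbers pair the samples. Of the 21 members with a mean of at least 1 CPM, replicate 2 was higher for 14 in FaDu parental, 18 in FaDu AfaR and 13 in FaDu ErlR. In Cal27 it was higher for 19 in parental, 7 in AfaR and 20 in ErlR cells. With the replicate block 1 member was called in each of Cal27 ErlR, FaDu AfaR and FaDu ErlR, the Cal27 AfaR median was 2.15, and FaDu AfaR neighbours had 0 calls. A crossed pairing in Cal27 AfaR, chosen after seeing the data, gave 6 S phase, 2 neighbour, 1 processing and 1 chaperone call.

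With 2 libraries a group and 36 of 65 members below the filter in Cal27 and 32 in FaDu, small differences of scarce members were not detectable at this depth.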

Other observations

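Among the other markers, the fibroblast list in Cal27 ErlR had 4 of 6 tested genes called lower by edgeR (9.92% of all genes), with a sum of 15.4 and 32.2 CPM against 74.7 and 84.0 CPM in parental cells, while the members' sum was 1.15 times the parental one. CDH5, a cadherin of endothelium, had 1.09 and 4.15 CPM in Cal27 ErlR and 30.3 and 30.7 CPM in Cal27 parental cells. The squamous markers differed between the FaDu AfaR libraries, at 6722 and 13217 CPM, where the members' sums were 123 and 138 CPM.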
